A study of Mus musculus with 16 samples.

Results

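The endoplasmic reticulum (ER) is where membrane and secreted proteins are folded, and 33 genes of its folding machinery and of its stress programme, the unfolded protein response, were followed here in mouse microglia. They were chosen by symbol, all 33 were present among the 53700 gene lines of the files, and all 33 passed the filter on low counts as part of 17090 genes. By role they comprised 6 sensors and transcription factors, 11 chaperones and partners of chaperones, 7 disulfide isomerases and thioredoxin domain proteins, and 9 genes of ER-associated degradation.

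Microglia, the resident macrophages of the brain, were sorted from whole brains of Ercc1 knockout (KO) and control (WT) mice of a mixed C57Bl6J and FVB cross. The sort took DAPI-negative cells that were CD11b-high, CD45-intermediate and Ly6c-negative. There were 4 groups of 4 bulk RNA-seq libraries: KO at 6 weeks, WT at 6 weeks, KO at 12 weeks and WT at 12 weeks. The sexes were balanced at 6 weeks, with 2 libraries of each sex per group by the labels, whereas each group of the older mice had 3 libraries labelled male and 1 labelled female. The labels say neither which part of Ercc1 is altered nor whether the change is confined to a cell type. Ercc1 encodes a subunit of a nuclease of DNA repair, and the series title describes the mice as a model of accelerated aging.

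Proteins that fail to fold in the ER are sensed by 3 membrane proteins. IRE1, encoded by Ern1, splices the mRNA of the transcription factor XBP1. PERK, encoded by Eif2ak3, slows translation and favours production of ATF4, which in turn can raise the factor CHOP, encoded by Ddit3. ATF6 is cut to release a transcription factor. Together these factors raise chaperones, disulfide isomerases and the machinery that extracts terminally misfolded proteins for degradation. Plasma cells, which secrete antibody in bulk, are the textbook example of a cell that relies on it, and macrophages use the same machinery for receptors, cytokines and lysosomal enzymes.

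Total counts per library lay between 7882182 and 22142972. Levels are counts scaled to library size (CPM), with the sizes adjusted by TMM, and the 33 genes took 1.36% to 1.74% of the counts of a library. Ercc1 stood at 2.82 to 4.54 CPM in 6-week KO against 13.5 to 30.6 CPM in 6-week WT, and at 0.425 to 6.77 CPM in 12-week KO against 7.46 to 49.2 CPM in 12-week WT, so that every KO library lay below every WT library of its age. The 12-week WT replicates 3 and 8 stood apart from the rest on principal components 2 and 3, at -155 on component 2 and -133 on component 3. Next came 12-week KO replicate 4, at -41.0 on component 2 and -72.5 on component 3. The 12-week WT replicate 5_6, labelled male, held 7741 counts of Xist and 2494 counts of 4 Y-linked genes, whereas the other males held 0 to 121 counts of Xist with 2057 to 6073 Y-linked counts, and the females 3844 to 10413 counts of Xist with 0 to 80 Y-linked counts. The label of replicate 5_6 carries 2 numbers, and whether that library holds RNA of more than 1 mouse is not stated. The 10 microglia markers were detected in every group and summed to 57755 to 68018 CPM in 6-week KO against 68946 to 75703 CPM in 6-week WT, and to 50008 to 52214 CPM in 12-week KO against 62103 to 68990 CPM in 12-week WT. The 8 markers of border-associated macrophages summed to 118 to 298 CPM in 6-week KO against 49.8 to 93.4 CPM in 6-week WT, and to 110.0 to 177 CPM in 12-week KO against 8.76 to 54.9 CPM in 12-week WT. Mitochondrially encoded transcripts held 0.328% to 0.405% of counts in 6-week KO against 0.182% to 0.253% in 6-week WT, and 0.491% to 0.680% in 12-week KO against 0.276% to 0.385% in 12-week WT. The 7 endothelial and mural markers summed to 12.2 to 40.2 CPM in 6-week KO against 52.8 to 77.4 CPM in 6-week WT, and overlapped at 12 weeks. The 6 monocyte markers summed to 12.9 to 27.7 CPM in 12-week KO against 1.08 to 11.4 CPM in 12-week WT, and overlapped at 6 weeks. The 10 markers of B and plasma cells summed to 1008 to 1165 CPM in 6-week KO against 1067 to 1230.2 CPM in 6-week WT, and to 974 to 1040.2 CPM in 12-week KO against 1009 to 1167 CPM in 12-week WT, while 6 or 7 of the 10 were at 0 throughout a group, among them Mzb1 and Pou2af1 in every library. Cd79b and Ighm were at 0 in no group. The 8 neuron markers summed to 580 to 1123 CPM in 6-week KO against 849 to 1730 CPM in 6-week WT. At 12 weeks the neuron markers summed to 715 to 1306 CPM in KO against 1026 to 1716 CPM in WT. The 7 astrocyte markers summed to 257 to 431 CPM over all libraries, and the 7 markers of oligodendrocytes and precursors to 125 to 259 CPM. These neural sums overlapped between the genotypes at both ages. The 6 neutrophil markers summed to 75.2 CPM in 6-week WT replicate 2 and to 0 to 8.72 CPM in every other library. The 6 markers of T and NK cells summed to 0 to 3.74 CPM. The part of the neutrophil markers of that replicate in the results was not tested.

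The promoters of the best known targets of ATF6 carry the ER stress response element (ERSE), and the sequences are shown here because they mark the members through which ER stress is usually read. The RefSeq promoter table (GRCm38.p6, 250 bases before to 50 bases after each start) held a window for 29 of the 33 genes. The exact ERSE letters, CCAAT followed by any 9 bases and CCACG, searched on both strands, occurred in 8 of these 29 genes (27.6%) and in 37 of the 27025 genes of the whole table (0.137%). The 8 genes were Calr, Canx, Creld2, Dnajc3, Hsp90b1, Hspa5, Pdia6 and Syvn1, and Hsp90b1 held the element at 2 places. Each match is printed 5′ to 3′ along the strand of its gene with 5 bases on either side, the match is in capitals, and the coordinates are those of the capitals on GRCm38.p6.
Hspa5 (chr2:34772025-34772043, + strand): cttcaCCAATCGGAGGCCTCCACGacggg
Hsp90b1 (chr10:86705533-86705551, - strand): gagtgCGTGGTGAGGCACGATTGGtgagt
Hsp90b1 (chr10:86705638-86705656, - strand): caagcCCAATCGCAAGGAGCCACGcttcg
Calr (chr8:84847075-84847093, - strand): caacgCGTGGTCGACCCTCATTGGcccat
Canx (chr11:50325800-50325818, - strand): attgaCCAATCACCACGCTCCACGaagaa
Pdia6 (chr12:17266491-17266509, + strand): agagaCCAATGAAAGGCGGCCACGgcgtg
Dnajc3 (chr14:118937827-118937845, + strand): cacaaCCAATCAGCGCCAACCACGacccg
Creld2 (chr15:88819520-88819538, + strand): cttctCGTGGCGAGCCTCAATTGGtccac
Syvn1 (chr19:6046532-6046550, + strand): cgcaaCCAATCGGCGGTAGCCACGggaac
In Calr, Creld2 and the first of the listed Hsp90b1 sites the element reads in reverse, as CGTGG, 9 bases and ATTGG. The centres of the matches lay 35 bases before the start in Syvn1 and up to 203 bases before it in Hsp90b1.

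The whole window of Hspa5, which encodes the main ER chaperone BiP, spans chr2:34771840-34772139 on the + strand of GRCm38.p6, and its exact match is in capitals.
Hspa5: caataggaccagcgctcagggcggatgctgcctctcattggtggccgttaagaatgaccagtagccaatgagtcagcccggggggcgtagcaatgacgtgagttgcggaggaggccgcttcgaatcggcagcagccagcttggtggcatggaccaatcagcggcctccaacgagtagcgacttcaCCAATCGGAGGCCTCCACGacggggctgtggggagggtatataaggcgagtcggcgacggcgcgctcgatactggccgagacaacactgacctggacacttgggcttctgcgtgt

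A second form of the element, ERSE-II with the letters ATTGG, any 1 base and CCACG, was found in the windows of Herpud1 and Dnajb11 and in 0.0365% of all 32851 windows. The letters TGACGTGG, a core bound by XBP1 and ATF6 (UPRE), were found in a window of Txndc11, in a window of Txndc5 and in 0.676% of all windows. Both genes have more than 1 window, for different starts, and only 1 window of each held the UPRE letters. The letters TGATGNAA, a core of elements bound by ATF4 with CHOP or C/EBP factors (CARE), were found in windows of Herpud1 and Txndc5 and in 3.97% of all windows. In Txndc5 the CARE letters lay in a different window from the UPRE letters. A match describes letters in a window and is not evidence of binding.
Herpud1 (chr8:94386377-94386387, + strand): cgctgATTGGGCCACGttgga
Dnajb11 (chr16:22857852-22857862, + strand): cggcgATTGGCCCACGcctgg
Txndc11 (chr16:11134627-11134634, - strand): gtggcTGACGTGGagagt

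**Figure D1:**
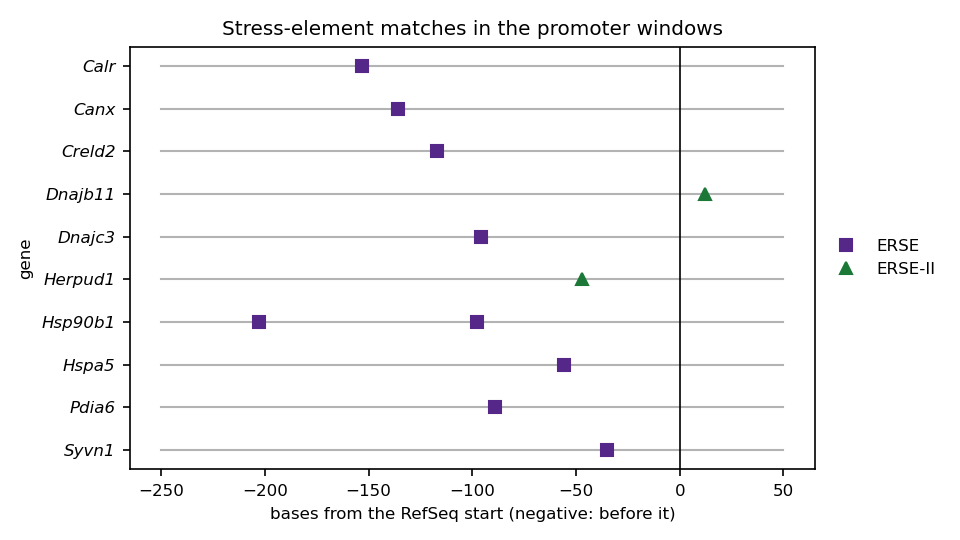
Positions of exact ERSE (squares) and ERSE-II (triangles) matches in the promoter windows of the 10 members that hold one; the horizontal axis gives the distance of the centre of a match from the RefSeq start in bases. All matches lie before the start except that of Dnajb11, which lies 12 bases after it.

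At 6 weeks 1 of the 33 genes was higher in KO microglia, Dnajc10, and none was lower at an adjusted p under 0.05 (edgeR quasi-likelihood test). Over all 17090 genes tested, 0.796% were higher and 0.0761% were lower. At 12 weeks 1 was higher, Os9, and 2 were lower, Txndc11 and Dnajb9, against 2.03% higher and 0.954% lower over all genes. For the mean of both ages Os9 was higher and Txndc11 lower, against 3.29% and 1.35% of all genes. These members do different things: Dnajc10 and Txndc11 encode thioredoxin domain proteins, Os9 a lectin of ER-associated degradation, and Dnajb9 a BiP co-chaperone. At 12 weeks DESeq2 gave 2 higher, Os9 and P4hb, and 2 lower, against 4.35% higher and 2.42% lower over all genes by that tool. Limma gave 1 higher and 1 lower at 12 weeks, against 1.88% and 0.802% of all genes. For the mean of both ages DESeq2 gave 4 higher and 2 lower, against 5.32% and 2.46% of all genes, and limma 1 and 1, against 4.02% and 1.72%. None of the 6 sensors and factors passed at either age by edgeR, DESeq2 or limma (0 at 6 weeks and 1 at 12 weeks at an unadjusted p under 0.05 by edgeR, which at 12 weeks placed 7.66% of all genes higher and 6.7% lower), and neither did any of the 8 genes with an exact ERSE (0 at 6 weeks and 0 at 12 weeks). At each age the summed microglia markers did not overlap between the genotypes and were lower in KO, and the summed markers of border-associated macrophages and the mitochondrial share did not overlap and were higher in KO. The endothelial and mural markers were lower in KO without overlap at 6 weeks, and the monocyte markers higher in KO without overlap at 12 weeks. The part of these in the results was not tested.

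The median log2 change of the 33 genes was 0.06 at 6 weeks and -0.08 at 12 weeks, beside -0.02 and -0.03 over all genes tested. DESeq2 and limma gave the same counts at 6 weeks, 1 higher and 0 lower, against 1.82% and 0.322% of all genes by DESeq2 and 1.31% and 0.246% by limma. At an unadjusted p under 0.05 edgeR placed 3 members higher and 0 lower, against 4.65% and 2.67% of all genes. The approximate 95% interval of the fold lay within 1.5-fold in both directions for 23 of the 33 genes at 6 weeks and for 17 at 12 weeks. RNA of a sort is summed over its cells, so fewer cells of a type and less RNA per cell cannot be told apart. Every group held libraries labelled male and female, but the labels do not say whether each library came from its own animal. The spread between libraries may therefore be partly technical.

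**Figure D2:**
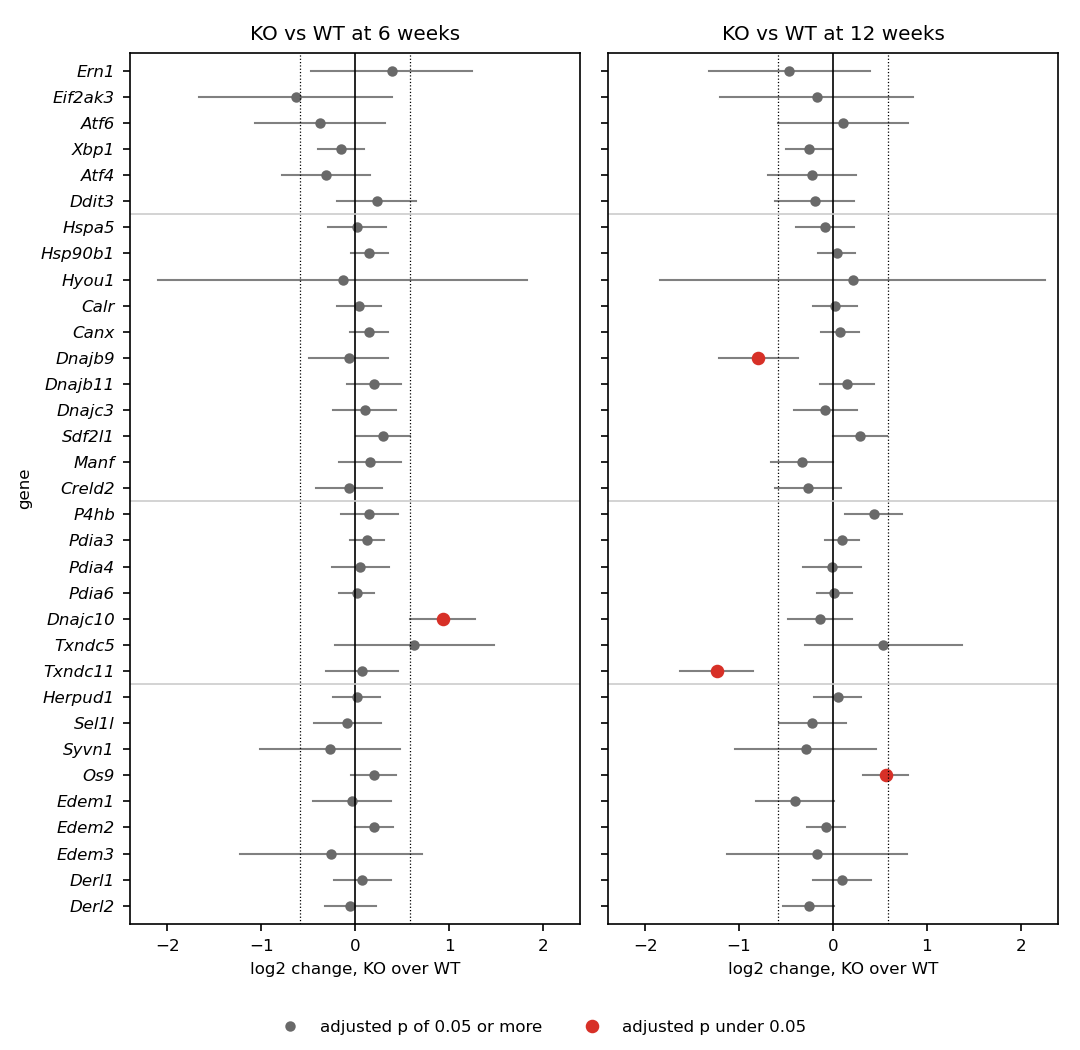
Log2 change of each of the 33 genes, KO over WT, at 6 weeks (left) and at 12 weeks (right), with the approximate 95% interval as a bar; genes are grouped by role from sensors at the top to ER-associated degradation at the bottom, and dotted lines mark 1.5-fold in either direction. Red points are the members past the threshold: Dnajc10 at 6 weeks, and Dnajb9, Txndc11 and Os9 at 12 weeks.

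**Figure D3:**
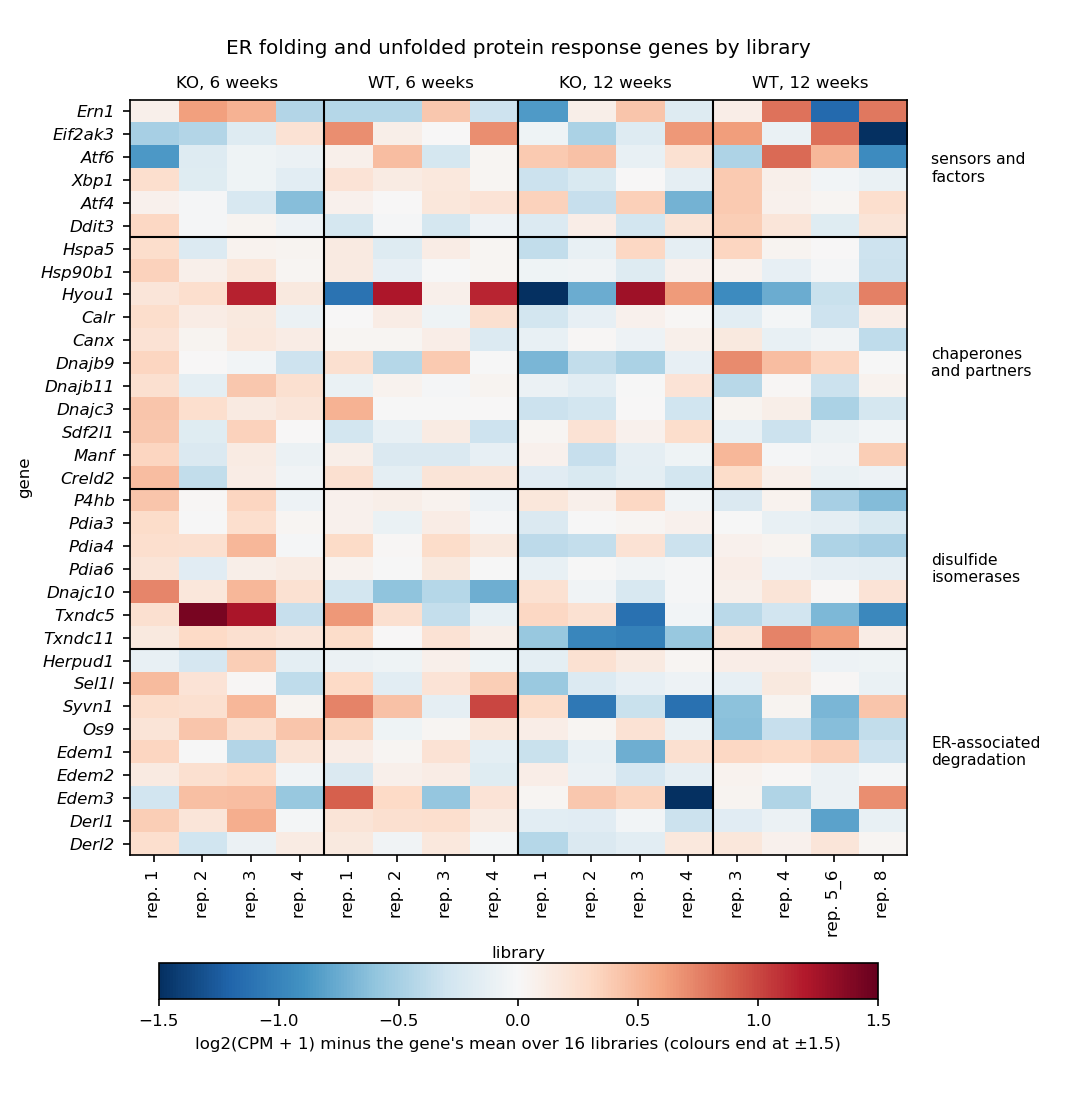
Level of each gene in each of the 16 libraries as log2(CPM + 1) minus its mean over all libraries, with KO left of WT at each age. Dnajc10 is below its mean in the 4 libraries of 6-week WT and Txndc11 is below its mean in the 4 libraries of 12-week KO; Hyou1, at most 17.6 CPM, varies widely between libraries of the same group.

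Among the sensors, Ern1 had 20.7, 30.5, 28.4 and 14.1 CPM in the 6-week KO libraries against 14.2, 14.3, 26.2 and 15.5 CPM in 6-week WT, and 10.4, 20.8, 26.3 and 16.9 CPM in 12-week KO against 21.1, 35.1, 8.16 and 34.5 CPM in 12-week WT. KO and WT overlapped at both ages, and the log2 changes were 0.39 ± 0.40 and -0.46 ± 0.40 (SE, adjusted p = 1.00 at 6 weeks and 0.707 at 12 weeks). Eif2ak3 had 9.84, 10.2, 12.4 and 16.7 CPM in 6-week KO against 23.7, 15.2, 14.3 and 23.7 CPM in 6-week WT, and 13.5, 9.99, 12.3 and 22.9 CPM in 12-week KO against 22.6, 13.2, 26.1 and 3.27 CPM in 12-week WT. At 6 weeks its log2 change was -0.63, the lowest of the 33 genes, yet the groups overlapped and it did not pass the test. The 12-week WT libraries spread widely, with replicate 8 at 3.27 CPM from 31 counts, and the interval of the fold at 12 weeks, 0.435 to 1.80, spanned changes in both directions. Atf6 had 31.5, 50.6, 55.1 and 54.5 CPM in 6-week KO against 61.2, 80.2, 48.1 and 59.2 CPM in 6-week WT, and 76.3, 79.1, 53.7 and 68.1 CPM in 12-week KO against 41.7, 105, 82.3 and 29.8 CPM in 12-week WT. Its lowest and its highest level in the older mice both came from WT, and neither age passed the test (adjusted p = 0.993 and 0.949, edgeR).

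Xbp1, whose mRNA is the substrate of IRE1, had 723, 535, 580.0 and 542 CPM in 6-week KO against 698, 661, 674 and 617 CPM in 6-week WT, and 483, 519, 607 and 552 CPM in 12-week KO against 794, 637, 591 and 565 CPM in 12-week WT. At 12 weeks WT replicates 3 and 4 lay above every KO library and the other WT libraries lay within the KO range. The log2 change was -0.15 ± 0.12 at 6 weeks and -0.26 ± 0.12 at 12 weeks, with fold intervals of 0.758 to 1.07 and 0.705 to 0.994 and an adjusted p of 0.321 at 12 weeks (edgeR). For the mean of both ages Xbp1 passed only without 6-week KO replicate 1 (log2 change -0.27 ± 0.07, adjusted p = 0.0365, edgeR). Counts per gene add up the spliced and the unspliced form, so splicing by IRE1 was not measured.

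Atf4 had 64.5, 60.9, 52.3 and 39.3 CPM in 6-week KO against 64.9, 62.1, 69.5 and 71.7 CPM in 6-week WT, and 79.1, 48.5, 79.4 and 37.6 CPM in 12-week KO against 81.4, 64.9, 63.3 and 73.9 CPM in 12-week WT. In 12-week KO the libraries formed a high pair and a low pair, and the log2 changes were -0.31 ± 0.22 and -0.22 ± 0.22 (adjusted p = 0.928 and 0.766, edgeR). ATF4 is controlled mainly at translation, which these data do not show. Ddit3 had 38.1, 30.0, 31.5 and 28.8 CPM in 6-week KO against 25.1, 30.1, 25.1 and 28.8 CPM in 6-week WT, and 26.3, 32.8, 25.0 and 35.0 CPM in 12-week KO against 39.8, 34.6, 26.8 and 34.9 CPM in 12-week WT. Its fold intervals, 0.878 to 1.57 at 6 weeks and 0.654 to 1.17 at 12 weeks, included 1, and neither age passed the threshold. Ddit3 overlaps Mars on the opposite strand in the GENCODE annotation, and Mars itself was lower in 12-week KO, at 88.2 ± 11.7 CPM against 147 ± 46.2 CPM in 12-week WT (SD, n = 4 each, adjusted p = 0.0465 by edgeR across all genes). The strand setting of the counting is not given in the sources used here, and whether the overlap moves Ddit3 was not tested.

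Hspa5, which encodes BiP, had 2444, 1774, 2114 and 2102 CPM in 6-week KO against 2241, 1783, 2201 and 2081 CPM in 6-week WT, and 1579, 1889, 2532 and 1854 CPM in 12-week KO against 2547, 2099, 2052 and 1639 CPM in 12-week WT. The groups overlapped throughout. Its log2 change was 0.02 ± 0.15 at 6 weeks and -0.09 ± 0.15 at 12 weeks, and the fold intervals were 0.821 to 1.26 and 0.759 to 1.17. The chaperone with the narrowest intervals was Hsp90b1, which encodes GRP94, at 0.968 to 1.27 and 0.896 to 1.18, followed by Canx, at 0.961 to 1.27 and 0.913 to 1.21. Canx and Calr encode the lectin chaperones calnexin and calreticulin, and Calr gave 0.875 to 1.21 and 0.863 to 1.19.

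Among the partners of BiP, Dnajb11, which encodes the co-chaperone ERdj3, had log2 changes of 0.20 and 0.15, and Dnajc3, which encodes the PERK inhibitor p58IPK, of 0.10 and -0.08, none of which passed the test at 6 or at 12 weeks. Sdf2l1, which encodes a component of the BiP cycle, had 332, 379.8, 342 and 391 CPM in 12-week KO against 303, 260.3, 305 and 318 CPM in 12-week WT. Every KO library lay above every WT library, yet the log2 change of 0.29 ± 0.13 did not pass the test (adjusted p = 0.350). Creld2, which encodes a stress-inducible ER protein, was the opposite case at 12 weeks, with 83.9, 80.5, 85.3 and 78.2 CPM in KO against 115, 99.9, 88.3 and 89.7 CPM in WT and a log2 change of -0.26 ± 0.17 (adjusted p = 0.538). Manf, which encodes a secreted stress-induced neurotrophic factor, had 180.0 ± 21.0 CPM in 12-week KO and 226 ± 43.5 CPM in 12-week WT (SD, n = 4 each, edgeR adjusted p = 0.343). Hyou1, which encodes the nucleotide exchange factor GRP170, ranged from 0 to 17.6 CPM on 0 to 152 counts, and its fold intervals of 0.233 to 3.57 and 0.279 to 4.80 were so wide that no difference could be resolved, with libraries of 1 group, 12-week KO, between 0 and 143 counts.

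Dnajb9 (ENSMUSG00000014905) encodes ERdj4, a co-chaperone of BiP that restrains IRE1. It had 123, 154, 143 and 183 CPM in the 12-week KO libraries against 326, 274, 249 and 197 CPM in 12-week WT. All 4 KO libraries lay below all 4 WT libraries, although the highest KO and the lowest WT value were close to each other. The log2 change was -0.79 ± 0.20 (SE, adjusted p = 0.0415 by edgeR), a fold of 0.577 with an interval of 0.430 to 0.773. In the younger mice it had 249.6, 199.7, 194 and 159.8 CPM in KO against 235, 147, 261 and 197 CPM in WT, which overlapped, with a log2 change of -0.07 ± 0.20. Without any 1 library the log2 change at 12 weeks lay between -0.89 and -0.62. The call was lost when any of 12-week KO replicates 1, 2 and 3 or 12-week WT replicates 3, 4 and 5_6 was left out (adjusted p from 0.0862 to 0.167), and it was kept without KO replicate 4 and without WT replicate 8. Limma gave an adjusted p of 0.0609, the fit of the 12-week libraries alone 0.0953, and the fit without both WT libraries that stood apart 0.134.

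**Figure D4:**
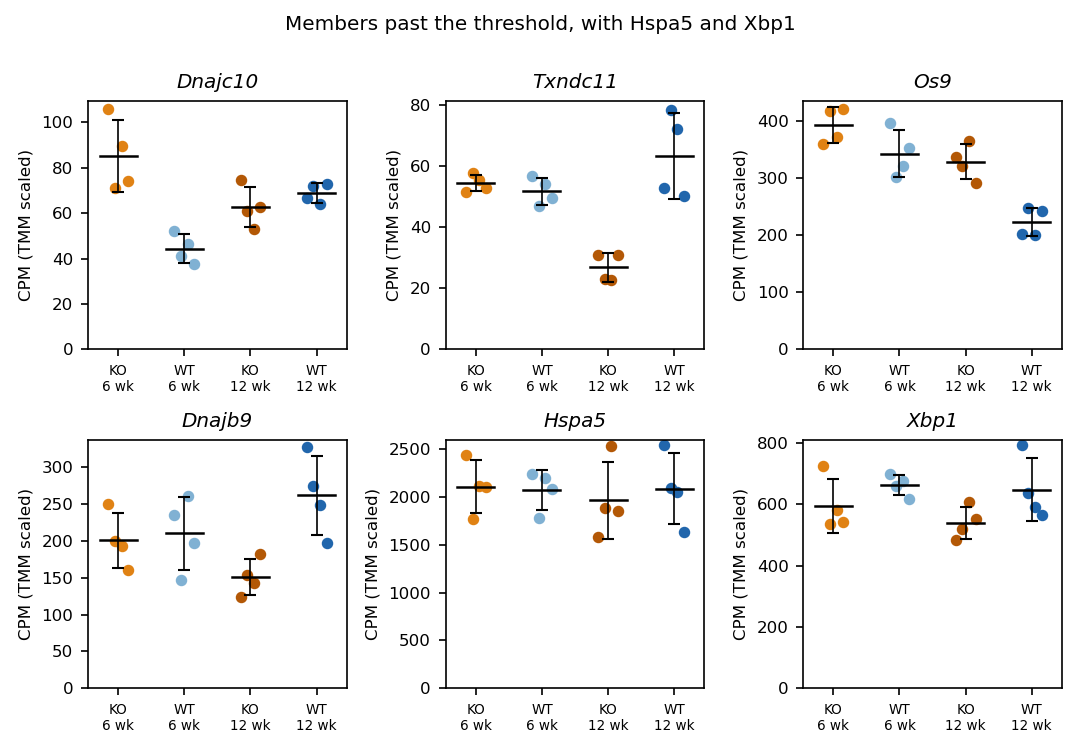
CPM of the 4 members past the threshold and of Hspa5 and Xbp1 in the 16 libraries, as points, with the mean and SD of each group of 4; the vertical axes start at 0. KO and WT do not overlap for Dnajc10 at 6 weeks and for Txndc11, Os9 and Dnajb9 at 12 weeks, and the groups of Hspa5 overlap at both ages.

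All 7 disulfide isomerases and thioredoxin domain genes had positive log2 changes at 6 weeks, with a median of 0.13, and 1 of them passed the test. Of all 33 members 21 were positive at 6 weeks, and of all genes tested 48.2%. At 12 weeks 4 of the 7 were positive and the median was 0.01, against 48.0% of all genes positive. Dnajc10 (ENSMUSG00000027006) encodes ERdj5, a reductase that opens disulfide bonds of proteins bound for degradation. It had 106, 71.2, 89.6 and 74.1 CPM in 6-week KO against 52.1, 41.2, 46.6 and 37.7 CPM in 6-week WT. The lowest KO library lay well above the highest WT library, and it was the only member of which every KO library lay above every WT library at 6 weeks, a pattern shown by 4.92% of all genes, while none had every KO library below, against 2.96% of all genes. The log2 change was 0.94 ± 0.16, with an interval of 0.59 to 1.28, a fold of 1.91 (adjusted p = 0.00839, edgeR).

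In the older mice Dnajc10 had 74.5, 61.1, 53.2 and 62.6 CPM in KO against 66.5, 72.2, 64.1 and 72.9 CPM in WT. The groups overlapped, and the log2 change was -0.14 ± 0.16 (adjusted p = 0.816). Between the ages the WT libraries were higher at 12 weeks, without overlap, and the KO libraries mostly lower. The difference between the genotype effects at 12 and at 6 weeks was -1.07 ± 0.23 on the log2 scale, with an adjusted p of 0.474 by edgeR and 0.00474 by DESeq2, so this difference between ages rests on the tool.

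Txndc11 (ENSMUSG00000022498) encodes a thioredoxin domain protein that in human cells is joined by a disulfide to EDEM2, the enzyme that starts mannose trimming of misfolded glycoproteins. It had 31.0, 23.1, 22.5 and 31.0 CPM in 12-week KO against 52.8, 78.4, 72.2 and 50.1 CPM in 12-week WT, on 183 to 307 counts per KO library. Every KO library lay far below every WT library. The log2 change was -1.24 ± 0.18, a fold of 0.424 with an interval of 0.324 to 0.555 (adjusted p = 9.48e-04, edgeR). It was the member with the lowest adjusted p, and the call was kept in all 8 other settings and without each of the 8 libraries in turn, with log2 changes from -1.31 to -1.11 when one was left out.

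At 6 weeks Txndc11 had 51.6, 57.6, 55.2 and 52.9 CPM in KO against 56.6, 46.8, 54.2 and 49.5 CPM in WT. These groups overlapped, with a log2 change of 0.07 ± 0.18. The genotype effect at 12 weeks minus that at 6 weeks was -1.31 ± 0.26, with an adjusted p of 0.473 by edgeR and 6.13e-04 by DESeq2. Txndc11 shares exonic sequence with Snn on the opposite strand in the GENCODE annotation. Snn had 61.3 ± 19.0 CPM in 12-week KO against 80.7 ± 6.19 CPM in 12-week WT (SD, n = 4 each, log2 change -0.41, adjusted p = 0.283 by edgeR across all genes). Whether reads of Snn enter the value of Txndc11 was not tested.

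P4hb, which encodes protein disulfide isomerase itself, had 728, 682, 799.9 and 622 CPM in 12-week KO against 557, 668, 456 and 413 CPM in 12-week WT. The groups overlapped only through WT replicate 4. The log2 change was 0.43 ± 0.14 with an adjusted p of 0.127 by edgeR, which became 0.0183 without that library and 0.0267 by DESeq2. At 6 weeks the log2 change was 0.15 ± 0.14 (adjusted p = 0.999). Pdia3 and Pdia6 encode the isomerases ERp57 and P5, and their fold intervals were among the narrowest of all members, 0.966 to 1.24 and 0.890 to 1.15 at 6 weeks and 0.942 to 1.21 and 0.887 to 1.15 at 12 weeks. Pdia4, which encodes ERp72, gave 0.841 to 1.28 and 0.804 to 1.23. Txndc5, which encodes ERp46, ranged widely, from 30.2 to 105 CPM in 6-week KO and 29.8 to 60.9 CPM in 6-week WT, and its log2 changes of 0.63 ± 0.40 and 0.54 ± 0.39 did not pass the test.

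Os9 (ENSMUSG00000040462) encodes a lectin that hands misfolded glycoproteins to the ubiquitin ligase complex of SEL1L and HRD1. It had 336, 321, 364 and 292 CPM in 12-week KO against 202, 246, 200.5 and 243 CPM in 12-week WT. All KO libraries lay above all WT libraries, with a log2 change of 0.56 ± 0.11, a fold of 1.47 and an interval of 1.25 to 1.74 (adjusted p = 0.0104, edgeR). At 6 weeks it had 359, 417, 371 and 419.9 CPM in KO against 396, 301, 321 and 352 CPM in WT, with a log2 change of 0.20 ± 0.11 and an adjusted p of 0.819.

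In the younger mice KO and WT overlapped. The log2 change from 6 to 12 weeks was -0.63 ± 0.11 in WT and -0.27 ± 0.11 in KO (edgeR adjusted p = 0.154 and 0.502), and DESeq2 gave 2.36e-04 in WT. The genotype effects at the 2 ages differed by 0.36 ± 0.16 (adjusted p = 1.00, edgeR). The 12-week call of Os9 was kept without each library in turn, and it was lost without both 12-week WT libraries that stood apart (log2 change 0.58, adjusted p = 0.0698) and with only the 12-week libraries in the fit (0.57, adjusted p = 0.0828).

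Over the mean of both ages, Os9 had 360.0 ± 44.4 CPM in KO and 283 ± 71.1 CPM in WT (SD, n = 8 each), a log2 change of 0.38 ± 0.08 with an adjusted p of 0.00915 by edgeR. Txndc11 had 40.6 ± 15.1 CPM in KO and 57.6 ± 11.5 CPM in WT, with -0.58 ± 0.13 and an adjusted p of 0.0131, which became 0.0527 with no filter on low counts. Both overlapped between the genotypes when the ages were pooled.

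The other 8 genes of ER-associated degradation did not pass the test at either age. Herpud1, a stress-induced membrane protein that organises the ligase complex, had log2 changes of 0.02 and 0.05, with fold intervals of 0.853 to 1.21 and 0.870 to 1.23. Sel1l and Syvn1, which encode the adaptor and the HRD1 ligase, gave -0.08 and -0.27 at 6 weeks and -0.22 and -0.29 at 12 weeks. The mannosidase-like proteins of Edem1, Edem2 and Edem3 mark glycoproteins for disposal. Edem1 had 450.0, 523, 342 and 669.5 CPM in 12-week KO against 705, 699.7, 730.4 and 458 CPM in 12-week WT, with a log2 change of -0.41 ± 0.19 (adjusted p = 0.361), and Edem2 and Edem3 gave -0.07 and -0.17. Derl1 and Derl2, which encode the derlins of the export channel, gave 0.10 and -0.26 at 12 weeks.

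At 12 weeks 2 of the 33 genes, Os9 and Sdf2l1, had every KO library above every WT library, against 5.13% of all genes, and 3, Txndc11, Dnajb9 and Creld2, had every KO library below, against 3.08% of all genes. Between 12 and 6 weeks no member passed the test in either genotype. In KO 29 of the 33 log2 changes were negative, with a median of -0.21, beside a median of -0.02 over all genes, of which 48.2% were positive. In WT 19 were negative and the median was -0.09. At an unadjusted p under 0.05, 10 members were lower and 0 higher at 12 weeks in KO, against 5.21% of all genes lower and 3.59% higher. In WT 5 were lower and 1 higher, against 4.35% and 3.09% of all genes. At the threshold edgeR called 0.00585% of all genes higher and 0.0176% lower in KO, and 0% higher and 0.0117% lower in WT. DESeq2 called Txndc11 lower in KO, where it called 0.761% of all genes higher and 0.819% lower. In WT it called Os9 lower and Dnajc10 higher, against 0.579% of all genes lower and 0.31% higher. Limma called no member, and of all genes 0.0117% higher and 0.041% lower in KO and 0% higher and 0.00585% lower in WT.

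The negative changes were spread over the roles. All 11 chaperones and partners and all 7 isomerases had negative log2 changes in KO, as did 8 of the 9 degradation genes, whereas 3 of the 6 sensors and factors did. The median over the 33 genes of the deviation from each gene's mean log2 level lay between -0.15 and -0.05 in the 12-week KO libraries and between -0.01 and 0.26 in the 6-week KO libraries. It lay between -0.09 and 0.07 in 12-week WT and between 0.01 and 0.11 in 6-week WT. Without 12-week KO replicate 1 the median log2 change in KO was -0.11, and without each of the other 7 it was at most -0.16. Mitochondrial transcripts were higher and the summed microglia markers lower in every 12-week KO library than in every 6-week KO library, and their part in the result was not tested. The genotype effect at 12 weeks minus that at 6 weeks had a median of -0.07 over the 33 genes, which became 0.02 without 6-week KO replicate 3, and edgeR called none of the members, against 0.00585% of all genes higher and 0% lower. At an unadjusted p under 0.05 it placed 1 higher and 4 lower, against 2.18% and 2.56% of all genes. DESeq2 called Dnajc10 and Txndc11 lower, against 0.181% of all genes higher and 0.14% lower, and limma called no member, against 0% and 0.00585%.

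In KO, Dnajc3, Txndc11 and Derl1 had every 12-week library below every 6-week library and none had every library above, against 3.51% and 3.05% of all genes. Txndc11 came closest to the threshold, with a log2 change of -1.05 ± 0.19 and an adjusted p of 0.0559 (edgeR), and Dnajc3 had 124, 129, 156 and 127 CPM at 12 weeks against 208, 187, 171 and 177 CPM at 6 weeks (adjusted p = 0.364). In WT, Os9 and Derl1 had every 12-week library below, and Dnajc10 above, every 6-week library, against 3% and 2.31% of all genes. Derl1 had 242, 257, 156 and 253 CPM in 12-week WT against 313, 322, 326 and 297 CPM in 6-week WT and gave about the same log2 change in KO, -0.42, as in WT, -0.43.

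The 8 genes with an exact ERSE had log2 changes between -0.27 and 0.15 at 6 weeks and between -0.29 and 0.07 at 12 weeks, with medians of 0.03 and -0.04. The 21 members whose windows held none had medians of 0.07 and -0.17 and held all 4 genes past the threshold. With 4 calls over sets of 8 and 21 genes, the counts do not show that the sets differ, and a difference was not tested. Of the 2 genes with ERSE-II, Herpud1 and Dnajb11, neither passed. Of the 2 with UPRE letters, Txndc11 was lower in 12-week KO and Txndc5 did not pass.

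Targets of ATF4 and CHOP in the integrated stress response formed a further list of 18 genes, of which 15 were tested. At 6 weeks edgeR called none (4 at an unadjusted p under 0.05, and Psat1 by DESeq2 and by limma), at 12 weeks 2 were higher and none was lower, and over the mean of both ages 3 were higher and none was lower. Over all genes edgeR called 2.03% higher at 12 weeks and 3.29% higher over both ages. At 6 weeks it placed 4.65% of all genes higher and 2.67% lower at an unadjusted p under 0.05. DESeq2 called 1.82% of all genes higher at 6 weeks, and limma 1.31%. At 12 weeks DESeq2 called 4 higher, Mthfd2, Slc3a2, Psat1 and Atf3, against 4.35% of all genes, and limma called Psat1, against 1.88%. Over both ages DESeq2 and limma called the same 3 genes as edgeR, Atf3, Psat1 and Mthfd2, against 5.32% and 4.02% of all genes higher. The median log2 change was 0.18 at 6 weeks and 0.14 at 12 weeks. At each age 9 of the 15 log2 changes were positive, against 48.2% of all genes at 6 weeks and 48.0% at 12 weeks. For 12 against 6 weeks in WT DESeq2 called Vldlr of this list higher, against 0.31% of all genes. Atf3 encodes a stress-induced transcription factor, and it had 31.9, 17.2, 27.6 and 56.5 CPM in 12-week KO against 4.43, 14.4, 15.8 and 8.86 CPM in 12-week WT. All KO libraries lay above all WT libraries, with a log2 change of 1.63 ± 0.42 (adjusted p = 0.0479, edgeR), and limma did not call it. At 6 weeks the log2 change was 1.06 ± 0.41 with an adjusted p of 0.486.

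Psat1, an enzyme of serine synthesis, had 43.2, 41.6, 18.2 and 29.8 CPM in 12-week KO against 3.79, 13.5, 7.15 and 18.8 CPM in 12-week WT, and 29.0, 38.7, 22.8 and 24.5 CPM in 6-week KO against 7.76, 11.6, 10.5 and 13.8 CPM in 6-week WT. Only the highest 12-week WT library reached into the KO range. The log2 changes were 1.65 ± 0.40 at 12 weeks and 1.41 ± 0.40 at 6 weeks (adjusted p = 0.0384 and 0.182, edgeR). Mthfd2, a mitochondrial enzyme of folate metabolism, passed for the mean of both ages, with 46.2 ± 16.3 CPM in KO and 23.5 ± 6.38 CPM in WT (SD, n = 8 each), a log2 change of 0.99 ± 0.23 and an adjusted p of 0.0195. Whether ATF4 was more active in KO was not tested. Besides ER stress, amino acid shortage and mitochondrial stress can activate it, and these counts do not distinguish such states. Asns, another target of ATF4 on the list, had group means between 2.93 and 6.70 CPM.

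**Figure D5:**
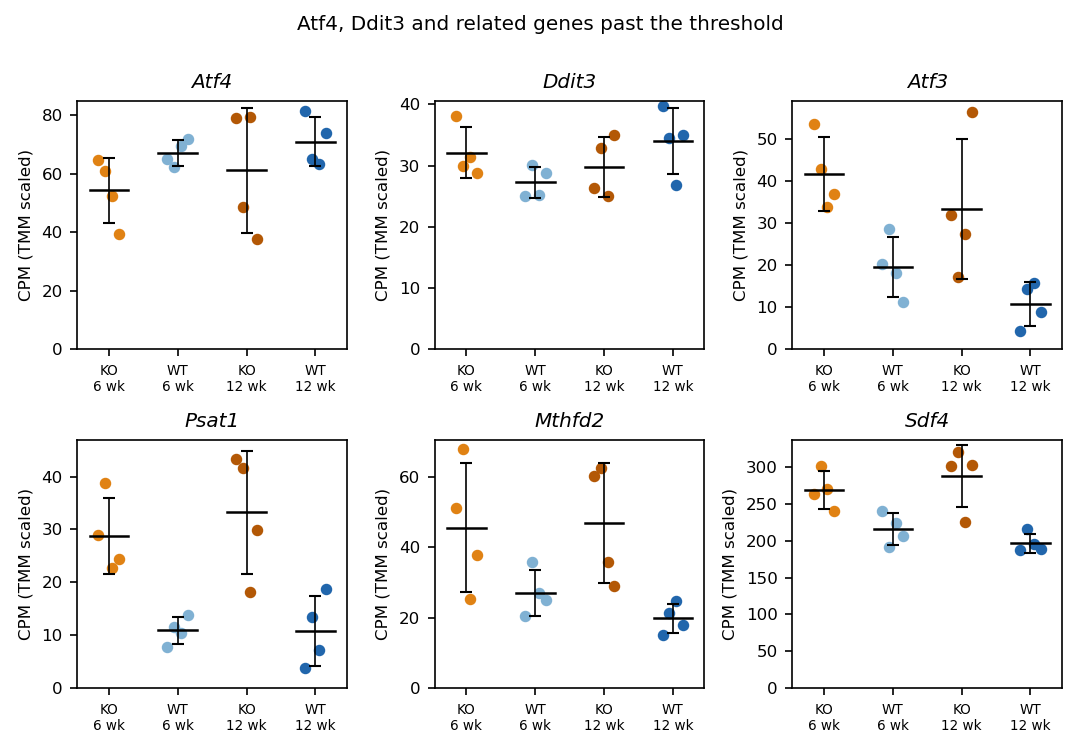
CPM of Atf4, Ddit3, Atf3, Psat1, Mthfd2 and Sdf4 in the 16 libraries, as points, with the mean and SD of each group of 4; the vertical axes start at 0. Atf3 and Psat1 have higher means in KO at both ages, and the groups of Atf4 and Ddit3 overlap.

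The rest of the ER machinery was described by further lists. Among 16 genes listed as ER oxidation and further folding enzymes, Sdf4 was higher at 12 weeks. It encodes a calcium-binding protein of the Golgi lumen rather than an ER enzyme. At 12 weeks Sdf4 had 301, 319.9, 225 and 302 CPM in KO against 187, 215, 195 and 189 CPM in WT (log2 change 0.54 ± 0.12, adjusted p = 0.0172, edgeR). The groups did not overlap. For the mean of both ages edgeR called Sdf4 alone in that list, and DESeq2 and limma each called Prdx4 and Sdf4, both higher. Of all genes, edgeR, DESeq2 and limma called 3.29%, 5.32% and 4.02% higher for that mean, and edgeR called 2.03% higher at 12 weeks. The list's median was 0.09 at 6 weeks and 0.16 at 12 weeks. Of 14 genes of the oligosaccharyl transferase and glycoprotein quality control, 13 had positive log2 changes at 6 weeks with a median of 0.16. At 12 weeks 9 were positive, with a median of 0.04. Of all genes tested 48.2% were positive at 6 weeks and 48.0% at 12 weeks. None of the 14 passed the test by edgeR at either age (2 and 1 at an unadjusted p under 0.05), and none was called at either age by DESeq2 or limma. At that unadjusted p edgeR placed 4.65% of all genes higher and 2.67% lower at 6 weeks, and 7.66% and 6.7% at 12 weeks. For the mean of both ages DESeq2 called Rpn2 and Ddost higher, against 5.32% of all genes. For 12 against 6 weeks in KO it called Rpn1 lower, against 0.819% of all genes.

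None of 18 genes of the translocon and signal peptidase and 15 tested further sensors and regulators passed edgeR at either age. At an unadjusted p under 0.05 they held 0 and 0 genes at 6 weeks and 3 and 1 at 12 weeks. Over all genes edgeR placed 4.65% higher and 2.67% lower at that p at 6 weeks, and 7.66% and 6.7% at 12 weeks. From these 2 lists DESeq2 called Srprb lower at 12 weeks, against 2.42% of all genes lower. It called Eif2ak2 higher for the mean of both ages, against 5.32%, and Ssr4 higher at 12 than at 6 weeks in KO, against 0.761%. Limma called none from these lists. Of 12 tested cytosolic and mitochondrial chaperones none passed between the genotypes at either age (1 and 2 at an unadjusted p under 0.05, and none by DESeq2 or limma). Their medians were 0.13 at 6 weeks and -0.01 at 12 weeks. For 12 against 6 weeks in WT DESeq2 called Hspa9 of these chaperones lower, against 0.579% of all genes. Of 12 tested immediate early genes, which respond to tissue handling as well as to signals, none passed edgeR at either age (3 and 3 at an unadjusted p under 0.05). Egr2 passed for the mean of both ages, with 24.1 ± 14.4 CPM in KO and 3.66 ± 3.81 CPM in WT (SD, n = 8 each, log2 change 3.15 ± 0.85, adjusted p = 0.0465). For that mean edgeR called 3.29% of all genes higher. DESeq2 called 4 of the early genes higher and 1 lower, Egr2 among them with Btg2, Dusp1, Egr1 and Ier2, against 5.32% and 2.46% of all genes. Limma did not call Egr2 but called Btg2, Dusp1 and Egr1, 2 higher and 1 lower, against 4.02% and 1.72%. DESeq2 called Egr1 higher at 6 weeks, against 1.82% of all genes, and Egr2 higher at 12 weeks, against 4.35%. Limma called Egr1 higher at 6 weeks, against 1.31%. For 12 against 6 weeks in WT DESeq2 called Jun lower, against 0.579% of all genes. Atf3 is itself induced early by handling, and the part of handling in its change was not tested.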

How the data were processed

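RNA-seq was measured in 16 libraries of sorted microglia, 4 per group. Whole-number counts per gene were deposited by the authors. Per the submitters' processing notes, FastQC 0.11.9, cutadapt 2.10, TopHat, SAMtools 1.10, Picard 2.13.2 and HTSeq 0.11.0 were used with GRCm39; the strand setting is not given in the sources used here. Symbols picked the 33 genes; Ddit3 had a second line that was at 0 in every library.

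Levels are CPM. From the counts, 17090 of 53700 genes were kept by filterByExpr (minimum count 10), scaled by TMM and fitted in 1 edgeR 4.0.16 quasi-likelihood model over all 16 libraries with group and sex (R 4.3.3). The 6 contrasts were tested with Benjamini-Hochberg adjustment over all genes at 0.05. The standard error is the log2 change over the square root of F, and intervals are approximate 95%. The common dispersion was 0.421. The scripts were tested on simulated data. Alternatives were DESeq2 1.42.0, limma 3.58.1 (voom with quality weights), other scaling, no filter and no sex term. Further ones were a replicate block in place of the sex term, fewer samples and leaving out each library. The 12-week WT replicate 5_6 was kept under its label. Replicate numbers were not used in the main fit, since the labels do not say that they pair animals.

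Members and lists were chosen with earlier results of these data known. Per-library values were given for members past the threshold, the sensors and Hspa5, and for members of other lists past the threshold; other members were named by range or, as with P4hb, Sdf2l1, Creld2, Edem1, Dnajc3, Derl1, Slc3a2 and other genes called by DESeq2 or limma alone, after their values were seen. Overlapping genes came from GENCODE annotation, and promoter sequences from RefSeq (GRCm38.p6). A list of further ER-associated degradation genes is not reported here.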

Additional observations from a re-analysis of the deposited data

Results flagged for a closer look

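In 7 of 132 groups of 4 libraries, 1 library lay farther from the other 3 than Dixon's 95% criterion allows, which chance gives in about 1 of 20 groups. In 6-week WT, Ern1 had 26.2 CPM in replicate 3 and 14.2 to 15.5 CPM in the others, and Dnajc3 had 224 CPM in replicate 1 and 155 to 156 CPM in the others. In 6-week KO, Hyou1 had 16.2 CPM in replicate 3 and 7.53 to 8.16 CPM in the others. In 12-week KO, replicate 3 was high for both Dnajc3 (156 CPM, others 124 to 129 CPM) and Pdia4 (372 CPM, others 242 to 256 CPM). In 12-week WT, Edem1 had 458 CPM in replicate 8, others 700 to 730 CPM, and Derl1 had 156 CPM in replicate 5_6, others 242 to 257 CPM. None of these genes passed the threshold.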

How the results depend on the processing

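At 6 weeks 1 member was higher and 0 were lower under every alternative run. At 12 weeks the count of members higher was 2 by DESeq2 and with no filter, 0 with the replicate block, 0 with only the 12-week groups and 0 without both WT libraries that stand apart, and 1 to 2 when each library was left out (2 without WT replicate 4). The count lower was 1 by limma, with the block, with only those groups and without both libraries, and 1 to 2 when each was left out. For the mean of both ages, 4 were higher by DESeq2, 2 with no filter and 0 with the block, with a leave-one-out range of 1 to 2; 2 were lower by DESeq2 and 0 with the block, with a range of 1 to 2. In KO between the ages 1 was lower by DESeq2, with no filter and with no sex term, and the median ranged from -0.23 to -0.11 without each library. In WT 1 was higher and 1 lower by DESeq2, and 1 lower with no filter. For the difference between the ages 2 were lower by DESeq2, and the median ranged from -0.13 to 0.016 without each library. The replicate block gave medians of -0.20 at 12 weeks, -0.071 for the mean of both ages and -0.16 for the difference, and adjusted p of 0.152 and 0.0969 for Os9 and Dnajb9 at 12 weeks and of 0.0781 and 0.0517 for Os9 and Txndc11 over both ages. Deviations from the group means correlated at -0.03 to 0.06 between same-numbered libraries. The labels do not say whether the numbers pair animals, and correlations near 0 cannot exclude it. With no filter Txndc11 over both ages had an adjusted p of 0.0527. Replicates 5_6 and 8 occurred in 12-week WT alone, so the block fitted each of them by its own term. The 12-week WT side of the block run therefore rested on replicates 3 and 4, and that run held no sex term. How much of its change came from this was not tested, nor was the cause in the other cases. Over all genes, calls were 149 at 6 weeks (366 by DESeq2, 266 by limma, 353 with no filter, 82 to 100 when 1 library of those groups was left out), 510 at 12 weeks (1158 by DESeq2, 1073 with no filter, 181 with the block, 204 with only those groups, 307 without both libraries, 328 without KO replicate 2) and 794 over both ages (1330, 1311 and 478 by DESeq2, with no filter and with the block). Calls were 4 in KO between ages (270 by DESeq2, 9 by limma, 204 with no filter, 16 with no sex term, 1 with the block, 0 with only those groups, 10 without both libraries), 2 in WT (152 by DESeq2, 1 by limma, 194 with no filter, 0 with the block, 0 with only those groups) and 1 for the difference (55 by DESeq2, 132 with no filter, 2 with the block, 2 without both libraries). Counts ran from 0 to 152 for Hyou1 and from 31 to 595 for Eif2ak3, where counting error adds to the spread between libraries; its part was not tested.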
